A study of Mus musculus with 3 samples.

Results

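The genes described here are Myc and 34 genes that act in ribosome biogenesis or in the growth metabolism linked to it, 35 members in all, each found by its symbol as 1 row in the count tables of 3 single-cell RNA libraries that list 31053 genes. The list was given by name, with no threshold on a measured value, and was drawn up with earlier results of these data known. The libraries hold bone marrow cells of C57BL/6 mice, enriched by their label for the surface receptor Kit, which marks stem cells, progenitors and mast cells. The unchallenged library came from mice at steady state. The library called challenged once here came from mice given Escherichia coli a single time, labelled 24 h. The library called rechallenged here came from mice given the bacterium 2 times, labelled 48 h. All 3 share the strain, the tissue and the enrichment, and no other agent or allele is labelled. Each group is 1 library, so the number of challenges and the hour changed together and cannot be told apart. The labels do not say how many animals went into a library or from which challenge the hours were counted, and the bacterial dose and route are not given in the sources used here. With 1 library a group no test between groups was possible. Values stand side by side with intervals that cover counting error only, and the 3 comparisons share libraries.

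Ribosome biogenesis starts in the nucleolus, where RNA polymerase I transcribes ribosomal RNA, small nucleolar ribonucleoproteins guide its methylation and pseudouridylation, and assembly factors fold and cleave it into the small and the large subunit. Myc is a transcription factor that pairs with Max, binds E-box DNA, whose best known form is CACGTG, and raises transcription of many of these factors, of polyamine enzymes and of translation factors. In bone marrow, stem cells that divide seldom make few ribosomes, expanding progenitors make many, and neutrophils shut the programme down as they mature.

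The 3 libraries held 9684, 9060 and 8923 cell barcodes, with 119646078, 135079828 and 95522747 unique molecular identifiers (UMIs, each standing for 1 captured transcript). After filters on depth, mitochondrial share and doublets, 8796, 8356 and 8286 cells were kept, with a median of 10969, 13004 and 10247 UMIs and a median mitochondrial share of 2.07%, 2.58% and 4.10%. The rechallenged library thus had the highest mitochondrial share. Between 103 and 125 barcode sequences were shared by each pair of libraries. Cells were clustered without the members, and clusters were called "-like" a cell type from lists of marker genes. HSPC-like cells (haematopoietic stem and progenitor cells) numbered 717, 1184 and 748, neutrophil progenitor-like cells 820, 1350 and 1978, and immature neutrophil-like cells 3479, 1074 and 1413. Mature neutrophil-like cells numbered 3, 282 and 454, so the unchallenged library gave no usable value for them. Kit stood at 95.7, 64.1 and 118 counts per 1000000 UMIs (CPM) in HSPC-like cells and at 10.6, 9.58 and 5.80 in immature neutrophil-like cells, which were among the most numerous. In mature neutrophil-like cells of the challenged libraries it was at 99.0 and 51.9 CPM, from 67 and 50 UMIs, so the Kit level did not follow maturation. Wherever values are given in a row of 3, the order is unchallenged, challenged once, rechallenged.

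Promoters are shown because Myc binds E-boxes, and whether the motif bears on the levels of the members was not tested. RefSeq (assembly GRCm38.p6) gave windows from 250 bases before to 50 bases after the start for 29 of the 35 members. CACGTG, which reads the same on both strands, occurred in windows of 6 of these 29 genes (20.7%), namely Nop2, Pes1, Eif4a1, Eif5a, Mybbp1a and Wdr43, against 2187 of 27025 genes (8.09%) in the whole table. A gene with several windows counts if any of them holds the motif. By window it was 8 of 38 (21.1%) against 7.15%. The looser E-box CANNTG, which contains CACGTG, occurred in 16 of the 29 (55.2%) against 75% of all genes, and the members' windows had a median GC content of 60.7% against 52.7%. The 4 sequences below are the 250 bases upstream of the start, 5′ to 3′ on the gene's strand, with CACGTG in capitals. The first 3 hold it and belong to a large-subunit methyltransferase and to the translation factors that stand out in the results, and the fourth belongs to nucleolin and holds none. The Nop2 window is chr6:125131633-125131882 on the plus strand, with the motif starting 60 bases before the start. The Eif4a1 window is chr11:69672424-69672673 on the minus strand, with the motif 189 bases before the start, directly next to the annotated gene. The Eif5a window is chr11:69921387-69921636 on the minus strand, with the motif 74 bases before the start, inside the span that GENCODE annotates for the gene. It is 1 of 6 windows of Eif5a, of which 3 hold the motif, at 2 distinct sites, and it was printed because it does. The Ncl window is chr1:86359456-86359705 on the minus strand, outside the annotated gene. A match describes letters only and says nothing of binding.
Nop2: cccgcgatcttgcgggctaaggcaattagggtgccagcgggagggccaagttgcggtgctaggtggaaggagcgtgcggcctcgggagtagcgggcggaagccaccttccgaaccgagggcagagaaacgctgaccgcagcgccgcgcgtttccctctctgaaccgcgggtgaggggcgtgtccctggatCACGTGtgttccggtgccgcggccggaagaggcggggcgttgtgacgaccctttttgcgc
Eif4a1: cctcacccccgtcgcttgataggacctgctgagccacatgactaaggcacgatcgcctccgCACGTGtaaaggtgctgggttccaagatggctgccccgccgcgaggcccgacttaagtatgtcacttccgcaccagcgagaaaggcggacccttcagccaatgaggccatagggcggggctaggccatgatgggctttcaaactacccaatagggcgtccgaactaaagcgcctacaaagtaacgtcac
Eif5a: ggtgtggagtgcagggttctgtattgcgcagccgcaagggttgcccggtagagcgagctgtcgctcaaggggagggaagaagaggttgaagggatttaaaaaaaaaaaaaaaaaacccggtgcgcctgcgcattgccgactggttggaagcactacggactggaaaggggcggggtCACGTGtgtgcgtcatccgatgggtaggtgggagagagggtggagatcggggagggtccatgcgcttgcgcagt
Ncl: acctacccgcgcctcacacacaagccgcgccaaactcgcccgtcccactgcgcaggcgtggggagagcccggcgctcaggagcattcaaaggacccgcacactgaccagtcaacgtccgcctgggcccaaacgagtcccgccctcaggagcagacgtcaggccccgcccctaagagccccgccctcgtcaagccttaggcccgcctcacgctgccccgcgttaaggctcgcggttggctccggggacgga

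The members were a larger part of the transcriptome in stem, progenitor and erythroid cells than in maturing neutrophils, and in the stem and neutrophil progenitor classes they were highest in the library challenged once and lowest in the rechallenged one. In HSPC-like cells the 35 genes together held 0.854%, 1.15% and 0.685% of UMIs. The neutrophil progenitor-like class held 0.744%, 1.18% and 0.649%. Monocyte-like cells showed the same order of libraries, at 0.926%, 1.26% and 0.725%. Erythroid-like cells held 1.23%, 1.24% and 0.952%, so that the unchallenged library and the one challenged once stood side by side there. In megakaryocyte-like cells the order differed, at 1.10%, 1.02% and 0.699%, and in B lineage-like cells it was 0.673%, 0.603% and 0.518%. Immature neutrophil-like cells held 0.158%, 0.201% and 0.111%, and mature neutrophil-like cells 0.145% and 0.0713% in the challenged libraries. The rechallenged library was the lowest in each of these classes, though in B lineage-like cells not once every cell was thinned to the same depth, as given further on.

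**Figure D1:**
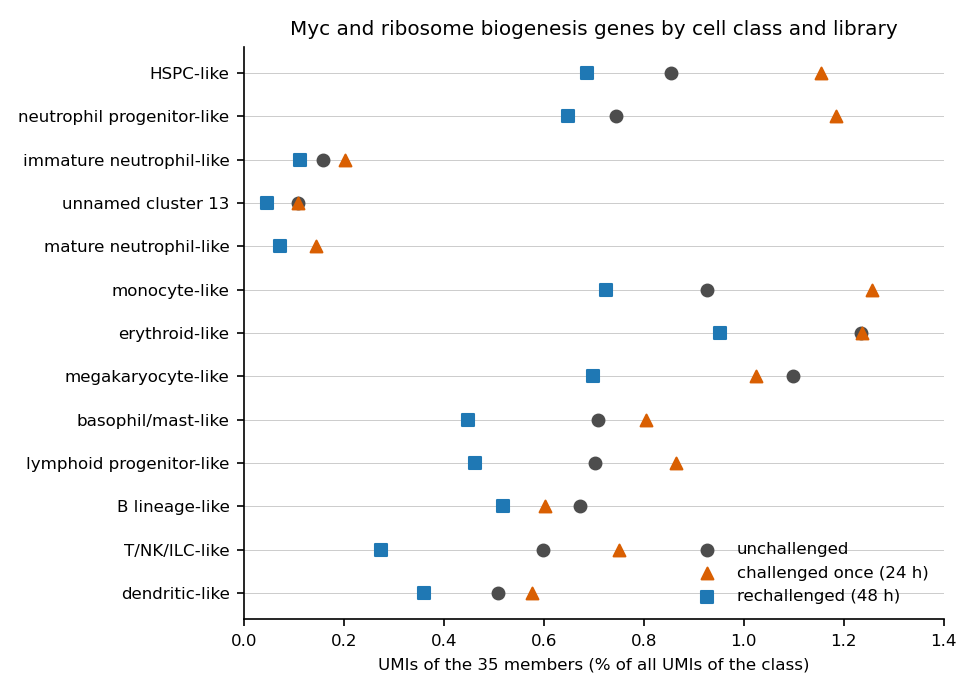
Share of UMIs held by the 35 members (percent, horizontal axis) by cell class (vertical axis), with 1 point for each library. Classes with under 50 cells in a library have no point there. HSPC-like, neutrophil progenitor-like and monocyte-like cells are highest in the library challenged once, at 1.15%, 1.18% and 1.26%, and immature neutrophil-like cells lie at or under 0.201%.

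Of the steps compared along the neutrophil lineage, the one with the larger fall of the members was from progenitor to immature neutrophil. Within the progenitor class the members held 0.944%, 1.39% and 0.895% of UMIs in a cluster led by Ctsg. In one led by Elane they held 0.652%, 0.874% and 0.449%. Differences between genes, classes or libraries are given as log2 ratios of CPM plus 10, for genes with at least 100 UMIs over the 2 groups compared, and a gene is counted as higher or lower where this ratio is at least 1.5-fold. From HSPC-like to neutrophil progenitor-like cells the median member differed by -0.26, -0.11 and -0.24 in the 3 libraries, and 5, 2 and 5 of the 35 members were lower, against 16.1%, 10.7% and 13.3% of all genes measured. From neutrophil progenitor-like to immature neutrophil-like cells the median member differed by -1.96, -2.27 and -1.88. All 35 members were at least 1.5-fold lower in each library, against 31.5%, 33.1% and 30.4% of all genes. Median-of-ratios scaling instead of totals shifted the all-gene median by 0.376, 0.410 and 0.407 in this step, and the all-gene shares lower became 14.5%, 15.1% and 11.3% beside shares higher of 14.5%, 17.7% and 15.4% in place of 6.04%, 7.76% and 5.65%. The member medians were then -1.52, -1.85 and -1.44. Specific granule genes, which mark maturing neutrophils, held 49.5%, 42.9% and 39.9% of UMIs in immature neutrophil-like cells and 4.94%, 2.64% and 3.02% in neutrophil progenitor-like cells, so the members shared a smaller remaining pool after this step. The granule list was not left out of the clustering, and it includes markers that named the immature class. With granule, ribosomal protein and mitochondrial genes left out of the totals the medians were -1.85, -2.19 and -1.98.

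The members most reduced at this step were the same few in each library. Srm, the enzyme that makes spermidine, went from 192, 337 and 112 CPM in neutrophil progenitor-like cells to 10.9, 11.3 and 2.19 in immature neutrophil-like cells. Mif, a cytokine that also has tautomerase activity, went from 584, 1467 and 1064 CPM to 46.9, 128 and 104. C1qbp, a protein of the mitochondrial matrix, differed by a log2 ratio of -2.89, -3.47 and -3.31. Low members such as Polr1b, a core subunit of RNA polymerase I, showed smaller log2 ratios of -0.77, -0.90 and -0.87, a size that the added 10 CPM limits for a gene at 9.20, 11.7 and 10.2 CPM. Eif5a, an elongation factor that carries the modified amino acid hypusine, kept 513, 732 and 328 CPM in immature neutrophil-like cells after 1309, 2029 and 807 in the progenitors. Its level in maturing cells was therefore well counted in each library, unlike that of Myc.

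Within the HSPC-like class, a cluster led by Cd34, Ifitm1 and Cd27 held more of the members than the cluster led by Hlf, Ly6a and Meis1, genes known from long-lived stem cells. The shares of UMIs were 0.993%, 1.31% and 0.782% in the first against 0.713%, 0.848% and 0.470% in the other. The median member was higher by 0.34, 0.57 and 0.54, and 6, 14 and 15 of the members were at least 1.5-fold higher, against 3.36%, 3.65% and 6.34% of all genes. None was lower. Srm and Mif differed most in all 3 libraries, by 1.01, 1.39 and 1.41 for Srm and by 1.06, 1.12 and 1.31 for Mif.

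Myc itself did not follow the other members between libraries in the HSPC-like class as a whole. Myc (ENSMUSG00000022346, chr15:61985391-61990374, plus strand, GRCm38) had 745, 1798 and 746 UMIs there, which is 92.0 CPM (exact Poisson 95% interval 85.5 to 98.9), 91.5 CPM (87.3 to 95.8) and 92.5 CPM (86.0 to 99.4). The 3 intervals overlap. The ratio of the library challenged once to the unchallenged one was 0.995 (exact 95% interval 0.913 to 1.08), while the other 34 members together stood at 8452, 11452 and 6762 CPM. This level mixes 2 clusters whose shares of the class differed between libraries. In the Hlf-led cluster Myc was at 85.0 (76.2 to 94.5), 73.0 (66.6 to 79.9) and 68.7 (58.8 to 79.7) CPM, and the other members together at 7049.7, 8411 and 4636. In the Cd34-led cluster, which held 36.1%, 51.4% and 57.1% of the class, Myc was at 98.9 (89.5 to 109), 101 (95.4 to 106) and 103 (94.96 to 112) CPM, and the others at 9829, 12975 and 7719. Myc was thus lower in both challenged libraries within the Hlf-led cluster, with overlapping intervals, and level within the Cd34-led one. Neutrophil progenitor-like cells had Myc at 49.4 (45.9 to 53.1), 46.9 (44.6 to 49.2) and 35.4 (33.3 to 37.6) CPM, so the rechallenged library lay below the others, and log2 ratios to the unchallenged library were -0.06 and -0.39. The other members together stood at 7391, 11792 and 6453 CPM in these cells. This class too is a mix of 2 clusters. The one led by Ctsg, Ms4a3 and Calr held 30.7%, 56.8% and 38.7% of its cells and had Myc at 67.3 (60.1 to 75.2), 60.002 (56.7 to 63.4) and 60.2 (56.1 to 64.5) CPM. The one led by Elane, a granule protease, had 41.2 (37.3 to 45.3), 26.7 (24.0 to 29.6) and 15.3 (13.4 to 17.3) CPM. Within the Elane-led cluster Myc was therefore lower after 1 challenge and lower again in the rechallenged library, with intervals that do not overlap, and the near-equal class levels of the first 2 libraries go with a larger share of the Ctsg-led cluster after 1 challenge. Immature neutrophil-like cells gave Myc 142, 37 and 21 UMIs, or 3.66, 3.25 and 1.48 CPM. Under the other settings tried, the log2 ratio of Myc in HSPC-like cells ranged from -0.10 to 0.00 for the library challenged once over the unchallenged one and from -0.12 to 0.19 for the rechallenged over the unchallenged one.

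Myc levels spanned a wide range over cell classes. Among classes of at least 50 cells in each library, megakaryocyte-like cells had the highest Myc level, at 125, 132 and 103 CPM. Erythroid-like cells had 87.1, 99.7 and 65.4 CPM and lymphoid progenitor-like cells 91.6, 72.4 and 44.1 CPM, next to HSPC-like cells. In the unchallenged library the intervals of the HSPC-like (85.5 to 98.9), lymphoid progenitor-like (78.9 to 106) and erythroid-like (82.6 to 91.7) classes overlapped, so these neighbours did not differ beyond counting error. Basophil and mast cell-like cells followed at 62.1, 55.1 and 59.7 CPM, monocyte-like cells at 59.3, 46.4 and 38.1 CPM and neutrophil progenitor-like cells at the values above. B lineage-like cells were lower, at 27.6, 18.2 and 27.4 CPM.

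**Figure D2:**
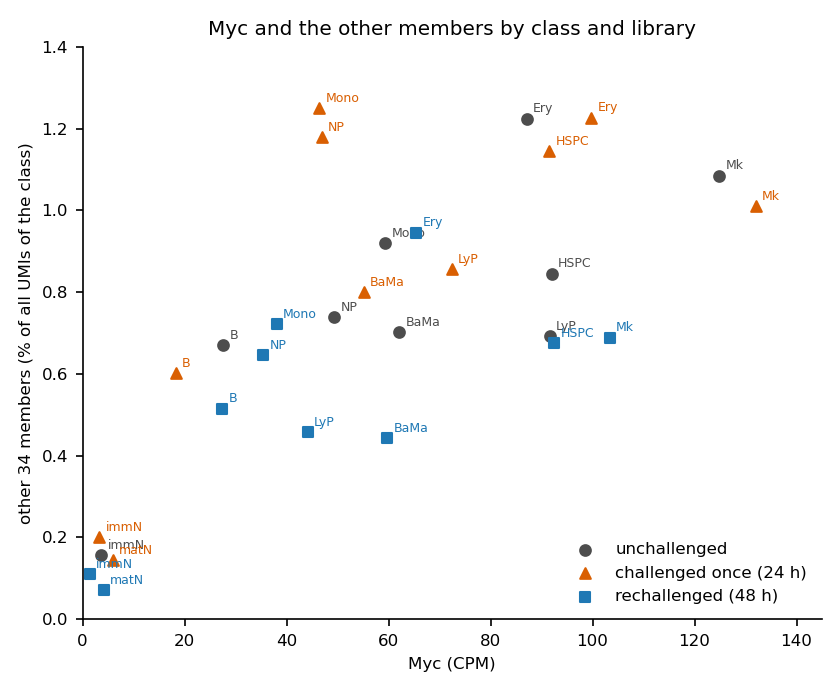
Myc level (CPM, linear axis) against the share of UMIs held by the other 34 members together (percent, linear axis). Each listed cell class has 1 point for each library in which it has at least 50 cells. HSPC is HSPC-like, NP neutrophil progenitor-like, immN and matN immature and mature neutrophil-like, Mono monocyte-like and Ery erythroid-like. Mk is megakaryocyte-like, LyP lymphoid progenitor-like, B B lineage-like and BaMa basophil and mast cell-like. The HSPC-like points share 1 Myc level near 92 CPM while the other members stand at 8452, 11452 and 6762 CPM, drawn as percent.

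Shares of cells with a Myc UMI were compared after every cell was thinned to 2000 UMIs. Of HSPC-like cells, 14.3% (exact 95% interval 11.8 to 17.1), 13.7% (11.8 to 15.8) and 14.2% (11.7 to 16.9) held a Myc UMI. Unthinned, 52.9%, 61.2% and 48.3% did, with 9508, 15516 and 10012 UMIs in the median cell. Of neutrophil progenitor-like cells, 9.09%, 7.19% and 6.51% held a Myc UMI at equal depth, and of immature neutrophil-like cells 0.898%, 1.24% and 0.432%. Mature neutrophil-like cells, which should have little Myc, gave 2 of 175 cells (1.14%) in the library challenged once and 2 of 210 (0.952%) in the rechallenged one, at median depths before thinning of 2407 and 1881. The shares of immature neutrophil-like cells lay at or near this background, and those of HSPC-like cells well above it. The exact 95% intervals of the background were wide, at 0.139 to 4.07% and 0.116 to 3.40%. Thinning left out 5, 12 and 13 HSPC-like, 39, 28 and 28 neutrophil progenitor-like and 27, 26 and 23 immature neutrophil-like cells that were shallower. It also left out 107 and 244 mature neutrophil-like cells of the challenged libraries, so the background rests on the deeper cells of that class.

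Between the library challenged once and the unchallenged one, most members other than Myc were modestly higher in HSPC-like cells. The median member was higher by 0.33 on the log2 scale, against 0.00 over 9446 genes. Of 35 ratios 31 were above 0, where 50.4% of all genes were. The line of 1.5-fold was passed by 3 members, Odc1, Nhp2 and Mif, where 0.868% of all genes were higher by as much. No member was lower by as much, where 1.25% of all genes were. For neutrophil progenitor-like cells the median was 0.46, against 0.06 over 9403 genes, with 34 of 35 ratios above 0, where 63.5% of all genes were. There 12 members were at least 1.5-fold higher, where 2.59% of all genes were: Mif, Odc1, Ncl, Nhp2, Npm1, Srm, C1qbp, Nolc1, Bop1, Mybbp1a, Eif5a and Ebna1bp2. In immature neutrophil-like cells the median of 33 measured members was 0.08, equal to that of all genes, and Mif alone was higher, against 1.32% of all genes.

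Between the rechallenged and the unchallenged library, most members were lower. In HSPC-like cells the median was -0.47 against -0.12 over 8464 genes. The 11 members at least 1.5-fold lower were Rrs1, Ebna1bp2, Eif5a, Dkc1, Srm, Nip7, Gnl3, Pa2g4, Rrp9, Ppan and Nop56, where 8.27% of all genes were lower, and none was higher, where 1.65% of all genes were. For neutrophil progenitor-like cells the median was -0.49 against -0.06 over 9189 genes. The 12 lower members were Rrs1, Gnl3, Rrp1b, Srm, Ppan, Eif5a, Eif4a1, Pa2g4, Wdr12, Nop58, Dkc1 and Ddx21, where 4.3% of all genes were lower, and Mif was the 1 higher member, where 1.88% of all genes were. In immature neutrophil-like cells the median was -0.41, with Nop56, Srm, Eif4a1, Eif5a and Pa2g4 lower, against 3.41% of all genes, and Mif higher, against 2.83%.

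Between the rechallenged library and the one challenged once, the differences were the widest of the 3 comparisons. In HSPC-like cells the median was -0.76 against -0.10 over 9422 genes, and 26 of 35 members were lower, where 10.2% of all genes were. The 9 members under the line were Myc, Mif, Fbl, Nop58, Nop10, Polr1b, Wdr43, Pes1 and Noc2l. For neutrophil progenitor-like cells the median was -0.87 against -0.10 over 9713 genes, and 28 of 35 were lower, where 8.73% of all genes were, with Myc, Mif, Fbl, Nop10, Polr1b, Pes1 and Noc2l under the line. In immature neutrophil-like cells 8 of 28 measured members were lower, where 7.12% of all genes were, with a median of -0.48 against -0.15. In mature neutrophil-like cells 6 members had enough UMIs, with a median of -0.67 and 4 lower, where 11.1% of all genes were.

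Seen as an order of the 3 libraries, the one challenged once was the highest for 31 of 35 members in HSPC-like cells (88.6%), where it was the highest for 36.8% of 9883 genes. The same held for 34 of 35 members in neutrophil progenitor-like cells (97.1%) against 46.4% of 9989 genes. In the immature class it was the highest for 23 of 34 (67.6%) against 53.9% of 8782 genes. The rechallenged library was the lowest for 30, 28 and 33 members in these classes (85.7%, 80% and 97.1%), against 51.5%, 50.02% and 55.9% of all genes.

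**Figure D3:**
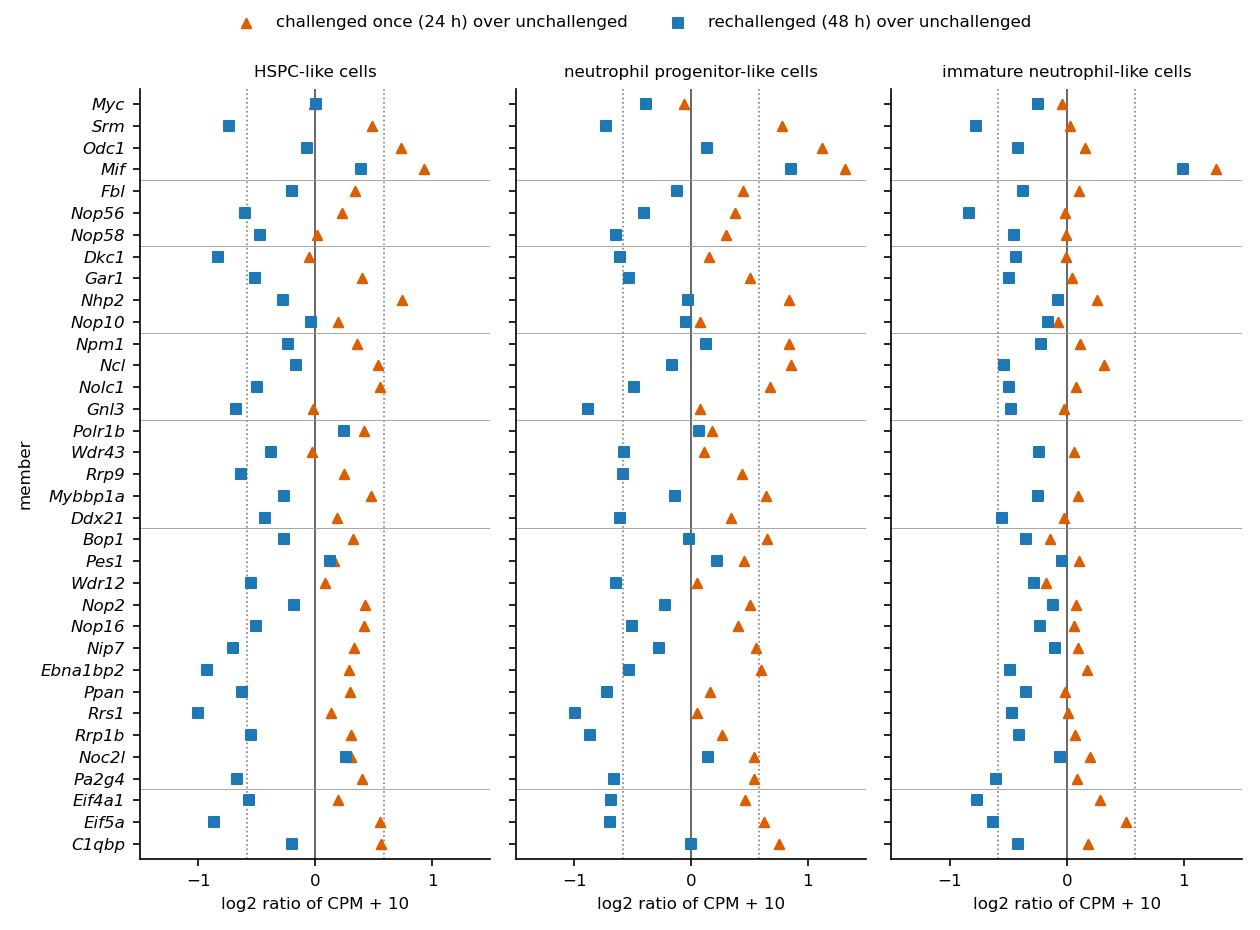
Log2 ratio of CPM plus 10 for each member (rows, by role) in the library challenged once and the rechallenged library, each over the unchallenged one. Panels show HSPC-like, neutrophil progenitor-like and immature neutrophil-like cells. Dotted lines mark 1.5-fold, and members under 100 UMIs over the pair are not drawn. Most points lie right of 0 for challenged once and left of 0 for rechallenged, while Myc in HSPC-like cells lies at -0.01 and 0.01.

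Several measures of the libraries moved with these comparisons. Median depth per HSPC-like cell was 9508, 15516 and 10012 UMIs and per neutrophil progenitor-like cell 17888, 26270 and 14467. The mitochondrial share was 2.98%, 2.96% and 4.66% in HSPC-like and 3.15%, 2.77% and 4.49% in neutrophil progenitor-like cells. Ribosomal protein genes held 41.2%, 39.7% and 47.5% of UMIs in HSPC-like and 34.8%, 33.2% and 39.2% in neutrophil progenitor-like cells. Specific granule genes, which stem cells should lack, held 1.30%, 0.219% and 0.2495% in HSPC-like cells, with Camp at 1730, 192 and 253 CPM, and 4.94%, 2.64% and 3.02% in neutrophil progenitor-like cells. Their part in the member differences was not tested. With cells thinned to 2000 UMIs the medians in HSPC-like cells were 0.20 (challenged once over unchallenged), -0.43 (rechallenged over unchallenged) and -0.69 (rechallenged over challenged once). With ribosomal protein, mitochondrial and granule genes out of the totals they were 0.27, -0.31 and -0.52. Neutrophil progenitor-like medians were 0.52, -0.46 and -0.90 thinned, and 0.41, -0.43 and -0.72 on those totals. Cells of at most 5% mitochondrial UMIs, a filter added after the data were seen, gave 0.33, -0.44 and -0.73 in HSPC-like cells and 0.46, -0.46 and -0.84 in neutrophil progenitor-like cells.

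Scaling also moved the genes that served as background. In HSPC-like cells, median-of-ratios scaling moved the all-gene median by 0.123 for rechallenged over unchallenged and by 0.113 for rechallenged over challenged once. The shares of all genes lower and higher were then 3.86% and 3.40% in the first comparison and 5.15% and 3.53% in the other, in place of 8.27% and 1.65%, and of 10.2% and 1.88%. The progenitors' shares were 2.64% and 3.07%, and 3.88% and 2.86%, in place of 4.3% and 1.88%, and of 8.73% and 1.33%, with a shift of 0.124 in the latter comparison. For challenged once over unchallenged in these cells they were 2.11% lower and 1.37% higher in place of 1.44% and 2.59%. On the totals without ribosomal protein, mitochondrial and granule genes, challenged once over unchallenged in HSPC-like cells gave 2.78% lower and 0.794% higher in place of 1.25% and 0.868%. The sign of some member ratios differed under 1 or both scalings. For challenged once over unchallenged these were Nop58 in HSPC-like cells, Gnl3, Nop10, Rrs1 and Wdr12 in neutrophil progenitor-like cells and 7 of 33 members in immature neutrophil-like cells. The counts of 31 and 34 members above 0, and of members highest in the library challenged once, include the first 5. For rechallenged over unchallenged they were Odc1, Ncl and Nop10 in HSPC-like cells, Bop1, Nhp2 and Nop10 in neutrophil progenitor-like cells and Nhp2 and Pes1 in the immature class. For rechallenged over challenged once they were Noc2l, Nop10 and Pes1 in HSPC-like cells, and Nop10 alone in the other classes. These ratios were at most 0.23 in size on the log2 scale.

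The makeup of the classes differed between libraries, and the same comparisons within clusters were as follows. In HSPC-like cells the Cd34-led cluster held 36.1%, 51.4% and 57.1% of cells. Within it the member medians were 0.32, -0.45 and -0.73 in the 3 comparisons (challenged once over unchallenged, rechallenged over unchallenged, rechallenged over challenged once). There 5 members were higher in the first, against 1.21% of all genes, and 10 and 25 lower in the others, against 8.55% and 11.1%. Within the Hlf-led cluster the medians were 0.15, -0.63 and -0.75, with 2 members higher, against 0.666% of all genes, and 20 and 26 lower, against 16.6% and 16.5%. The median after 1 challenge was thus smaller in the Hlf-led cluster, and both clusters had medians below 0 for the rechallenged library. Whether the clusters differ was not tested. In the neutrophil progenitor-like class the Ctsg-led cluster held 30.7%, 56.8% and 38.7% of cells and had medians of 0.40, -0.33 and -0.69, with 10 members higher in the first comparison, against 3.16% of all genes, and 5 and 21 lower in the others, against 4.61% and 7.3%. The Elane-led cluster had medians of 0.13, -0.77 and -0.79, with 1 member higher, against 1.23%, and 21 and 28 lower, against 7.75% and 10.1%. The median of 0.46 for the whole class exceeded that of either cluster. In the immature neutrophil-like class the Fcnb-led cluster held 25.3%, 29.7% and 52.0% of cells and the Chil3-led one 38.95%, 38.8% and 8.85%. Medians for rechallenged over unchallenged were -0.44 (Fcnb-led), -0.50 (Chil3-led) and -0.57 (Ifitm6-led), over 29, 25 and 16 measured members. Each was below the class median of -0.41. All-gene medians were -0.08, -0.15 and -0.004.

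**Figure D4:**
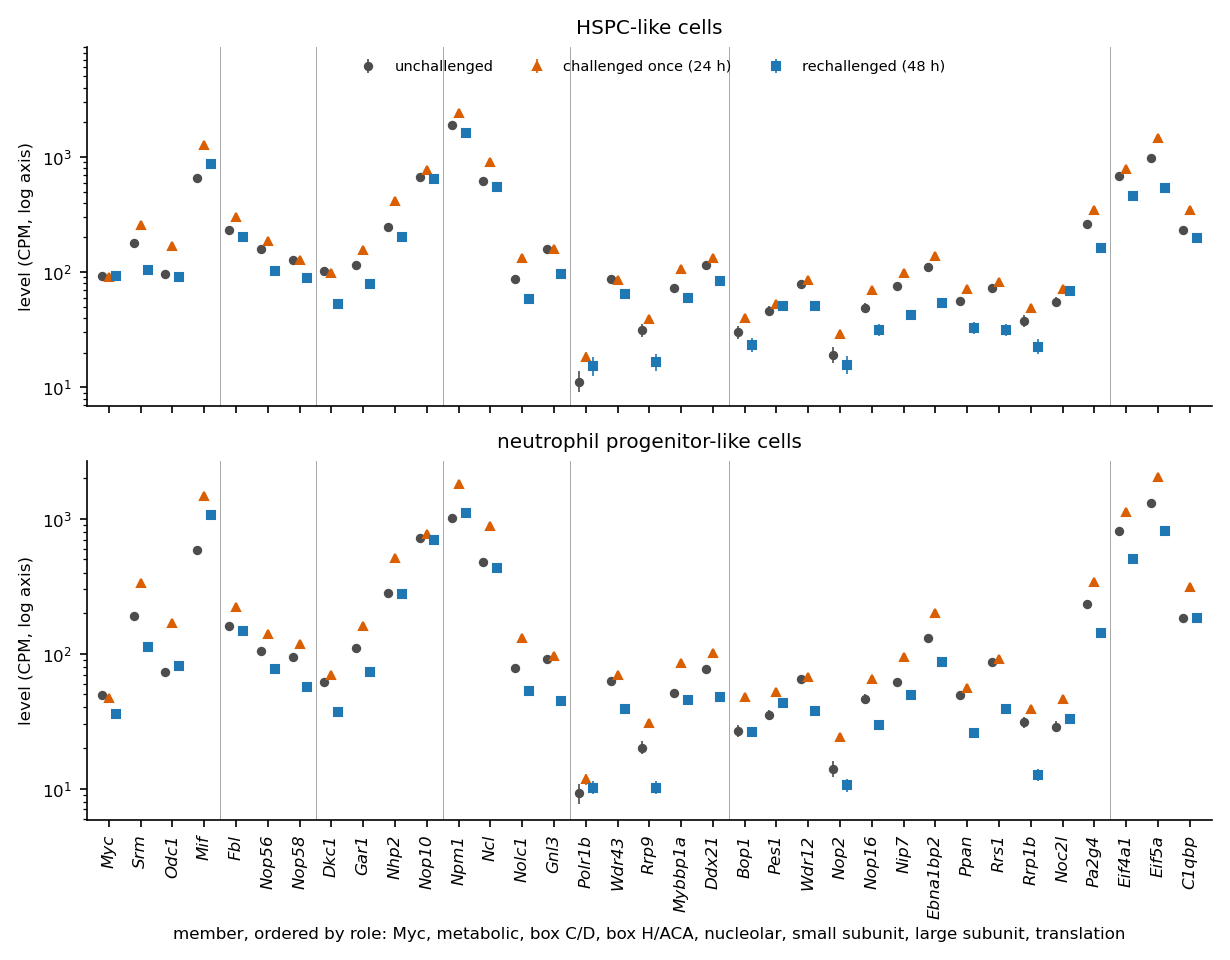
Level of every member (CPM, log axis) in HSPC-like and neutrophil progenitor-like cells, with 1 point for each library and exact Poisson 95% intervals as bars. Within a class the libraries' order is shared by most members.

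The metabolic members had the highest role medians for challenged once over unchallenged, with Myc counted among them, at 0.61 in HSPC-like and 0.95 in neutrophil progenitor-like cells. Odc1, ornithine decarboxylase, the entry enzyme of polyamine synthesis, was at 96.4, 167 and 91.1 CPM in HSPC-like cells and at 72.7, 170 and 81.0 in neutrophil progenitor-like cells. Its fold for challenged once over unchallenged was 1.73 (exact 95% interval 1.60 to 1.88) in the former and 2.34 (2.19 to 2.4995) in the latter. The unchallenged and rechallenged libraries were close to each other for this gene. Srm was at 180, 256 and 104 CPM in HSPC-like and 192, 337 and 112 in neutrophil progenitor-like cells, and the rechallenged library was lower than the one challenged once by 2.47-fold (2.29 to 2.66) and 3.01-fold (2.90 to 3.13). Both enzymes were thus highest in the library challenged once. Srm was the one at least 1.5-fold below the unchallenged level in the rechallenged library. Mif was at 659, 1268 and 867 CPM in the HSPC-like class, at 584, 1467 and 1064 in neutrophil progenitor-like cells and 46.9, 128 and 104 in immature neutrophil-like cells. It was the only one of the 35 members that stood above the unchallenged level in the rechallenged library in all 3 classes, by log2 ratios of 0.39, 0.85 and 0.998. The immature class hides a split here. In its cluster led by Fcnb and Camp, which held 25.3%, 29.7% and 52.0% of the class, Mif was at 52.6, 199.7 and 153 CPM, while in the clusters led by Ifitm6 and by Chil3 it was at 47.9, 72.3 and 31.3 CPM and at 41.7, 69.9 and 30.5 CPM, below the unchallenged level in the rechallenged library. For challenged once over unchallenged its folds were 1.92 (1.87 to 1.98), 2.51 (2.46 to 2.57) and 2.72 (2.54 to 2.92). Mif and Odc1 counts are uncertain because 58.0% and 30.4% of the 31-base words in the last 300 transcript bases, where this method reads, also occur in other genes. Their possible exchange of reads with those genes was not tested.

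Of the box C/D proteins, which methylate ribosomal RNA, all 3 were highest in the library challenged once in both classes, by small amounts, though for Nop58 in HSPC-like cells the sign against the unchallenged library turned with the scaling. Fbl, the methyltransferase fibrillarin, was at 234, 298 and 202 CPM in HSPC-like and 162, 224 and 148 in neutrophil progenitor-like cells. Nop56, a core protein of the particle, was at 159, 188 and 102 CPM and at 105, 139 and 77.2. Its partner Nop58 was at 126, 128 and 88.5 CPM and at 93.8, 118 and 56.5. The group's median log2 ratios in HSPC-like cells were 0.23 for challenged once over unchallenged and -0.47 for rechallenged over unchallenged, and 0.38 and -0.40 in neutrophil progenitor-like cells. Fbl and Nop56 also share 34.2% and 30.4% of their last 31-base words with other genes.

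The 4 box H/ACA proteins, which convert uridine to pseudouridine and also stabilise telomerase RNA, split. Nhp2 was at 246, 417 and 201 CPM in HSPC-like and 284, 517 and 279 in neutrophil progenitor-like cells, a fold of 1.70 (1.62 to 1.78) for challenged once over unchallenged in the former. Dkc1, the pseudouridine synthase dyskerin, was at 103, 98.9 and 53.4 CPM and at 61.6, 69.8 and 36.9, so that its unchallenged level and its level after 1 challenge were close and the rechallenged one was low. Gar1 was at 116, 156 and 78.5 CPM and at 110, 160 and 73.0. Nop10 was at 665, 763 and 647 CPM and at 724, 766 and 702, the narrowest span of the 4, and its signs depended on the scaling. The particle's core proteins were therefore unequal in their differences between libraries.

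Nucleolar chaperones and scaffolds had medians for challenged once over unchallenged of 0.45 in HSPC-like and 0.76 in neutrophil progenitor-like cells. Npm1, nucleophosmin, a histone and ribosomal protein chaperone, was at 1885, 2424 and 1604 CPM in HSPC-like and 1021, 1830 and 1114 in neutrophil progenitor-like cells. Ncl, nucleolin, was at 614, 895 and 547 CPM and at 483, 882 and 430. Both were near the unchallenged level in the rechallenged library, with log2 ratios of -0.23 and 0.13 for Npm1 and of -0.16 in each class for Ncl. Nolc1, which escorts small nucleolar particles, was at 86.9, 132 and 58.8 CPM and at 78.1, 131 and 52.9. Gnl3, the GTPase nucleostemin, was near its unchallenged level after 1 challenge, at 160, 158 and 96.1 CPM and 90.9, 96.2 and 44.6, where its sign in the progenitors turned with the scaling, and was lower in the rechallenged library by -0.68 and -0.89. Gnl3 and Dkc1 thus shared a pattern in which the other 2 libraries were close and the rechallenged one was low.

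In the group of polymerase I and small-subunit factors the differences were modest after 1 challenge. Mybbp1a, a nucleolar protein that binds transcription factors, was at 73.5, 106 and 59.5 CPM in HSPC-like and 50.7, 84.7 and 45.3 in neutrophil progenitor-like cells. Ddx21, an RNA helicase that links polymerase I transcription to processing, was at 116, 133 and 83.2 CPM and at 77.6, 101 and 47.5. Rrp9, a protein of the U3 particle, was at 31.4, 39.0 and 16.6 CPM and at 20.2, 30.8 and 10.2. All 3 were lowest in the rechallenged library. Wdr43, a factor of the early small-subunit precursor, was at 87.3, 85.3 and 64.9 CPM and at 63.2, 69.2 and 39.2. Polr1b was at 11.2, 18.4 and 15.3 CPM and at 9.20, 11.7 and 10.2, so that the rechallenged level was not below the unchallenged one.

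The 12 large-subunit factors had a median log2 ratio in HSPC-like cells of -0.55 for rechallenged over unchallenged and of -0.89 for rechallenged over challenged once. Rrs1, which helps to recruit the 5S particle, was at 73.5, 81.8 and 31.6 CPM in HSPC-like and 87.4, 90.6 and 38.9 in neutrophil progenitor-like cells, and its rechallenged level in HSPC-like cells was 2.59-fold (2.27 to 2.97) below that after 1 challenge. Ebna1bp2 was at 112, 139 and 53.9 CPM and at 130, 201 and 87.0, a difference of 2.57-fold (2.33 to 2.85) in HSPC-like cells. These 2 had the lowest ratios of rechallenged over unchallenged in HSPC-like cells among the members, -1.004 and -0.93. Nip7 was at 75.6, 97.6 and 42.7 CPM and at 61.5, 95.1 and 49.1. Ppan was at 55.9, 70.9 and 32.6 CPM and at 49.1, 56.1 and 25.96. Rrp1b was at 37.8, 49.0 and 22.6 CPM and at 30.9, 39.2 and 12.5, which is 3.13-fold (2.79 to 3.52) lower in the rechallenged library than after 1 challenge in the progenitors. Nop16 and Nop2 had the same order of libraries, at 49.3, 69.4 and 31.6 CPM and 19.3, 29.3 and 15.7 CPM in HSPC-like cells. Pa2g4, a growth-regulated protein of the maturing large subunit, was at 263, 350 and 162 CPM and at 232, 342 and 144.

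The PeBoW complex, which processes the precursor of the large subunit and is made of Pes1, Bop1 and Wdr12, was not uniform. Pes1 was at 45.8, 52.6 and 50.8 CPM in HSPC-like and 35.3, 52.1 and 43.0 in neutrophil progenitor-like cells, so it stayed above the unchallenged level in the rechallenged library. Bop1 was at 30.01, 40.2 and 23.3 CPM and at 26.7, 47.5 and 26.2. Wdr12 was at 79.4, 84.9 and 51.2 CPM and at 64.8, 67.3 and 37.9. Pes1 resembled Noc2l, a nucleolar protein that also regulates transcription, which was at 55.4, 70.8 and 68.4 CPM and at 28.8, 46.4 and 32.9. For these 2 genes the log2 ratio of the rechallenged over the unchallenged library in HSPC-like cells was 0.12 and 0.26, where most members were below 0.

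Among the translation members Eif5a differed most in the rechallenged library. It was at 989, 1456 and 537 CPM in HSPC-like and 1309, 2029 and 807 in neutrophil progenitor-like cells, and in HSPC-like cells it was 2.71-fold (2.62 to 2.80) lower in the rechallenged library than in the one challenged once. Eif5a requires spermidine, the product of Srm, for its hypusine. Eif4a1, the helicase that unwinds messenger RNA at initiation, was at 687, 786 and 460 CPM and at 811, 1118 and 502. It shares 46.2% of its last 31-base words with other genes. C1qbp was at 230, 344 and 199 CPM and at 183, 315 and 184, with unchallenged and rechallenged libraries close in the progenitors. The printed windows of Eif5a and Eif4a1 hold CACGTG and that of Ncl does not. All 3 were highest in the library challenged once, as were most members in both classes. No link of the motif to these levels was tested.

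Other genes of the pathway were counted from lists that hold no member. Beside them stand the shares of all genes past the line in the same comparison, first in HSPC-like and then in neutrophil progenitor-like cells. After 1 challenge 0.868% and 2.59% of all genes were higher, and in the rechallenged library 10.2% and 8.73% were lower than after 1 challenge. Of 44 small-subunit processome genes, 41 were above 0 for challenged once over unchallenged in HSPC-like cells, where 50.4% of all genes were. Their median was 0.21, though only Noc4l passed the line, at 13.6 against 27.7 CPM. In neutrophil progenitor-like cells 6 of 44 were higher, among them Pno1 (31.3 against 67.7 CPM), Emg1 (185 against 320) and Rrp7a (39.4 against 66.5), with a median of 0.31. For rechallenged over challenged once 14 and 15 of the 44 were lower in the 2 classes, against those 10.2% and 8.73%, with medians of -0.45 in both. None was higher, where 1.88% and 1.33% of all genes were. Of 48 measured large-subunit genes, 1 and 2 were higher after 1 challenge, close to the background of 0.868% and 2.59%, and 18 and 18 were lower in the rechallenged library than after 1 challenge, with Mrto4 at 104 against 46.7 CPM in HSPC-like cells. The large-subunit list shares Noc4l and Nop14 with the small-subunit one, and its 1 higher gene in HSPC-like cells was Noc4l again. The wider lists thus had the members' order with smaller medians. The 20 genes of the polymerase I machinery gave a median of 0.08 in HSPC-like and 0.14 in neutrophil progenitor-like cells after 1 challenge. None was higher or lower by 1.5-fold, where 0.868% and 2.59% of all genes were higher and 1.25% and 1.44% lower. In the rechallenged over the unchallenged library Polr2l, a subunit shared by the nuclear polymerases, went the other way from most of them, at 100 against 286 CPM in neutrophil progenitor-like cells.

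Of 34 other genes known as Myc targets, 6 were higher in HSPC-like and 13 in neutrophil progenitor-like cells after 1 challenge, against 0.868% and 2.59% of all genes, with medians of 0.33 and 0.50. Hspd1, a mitochondrial chaperone, was at 272 against 479 CPM in HSPC-like and 217 against 530 in neutrophil progenitor-like cells. Ldha, lactate dehydrogenase, was at 383, 627 and 281 CPM in HSPC-like and 415, 806 and 345 in neutrophil progenitor-like cells. In the rechallenged library 17 and 18 of the 34 were lower than after 1 challenge, against 10.2% and 8.73%. Again none was higher, where 1.88% and 1.33% of all genes were. Of the 10 measured genes of the Myc network in HSPC-like cells, Mycn, which encodes the N-Myc relative and was among the markers that named this class, was at 33.2, 12.7 and 4.96 CPM. Mxd4, an antagonist that competes for Max, was at 79.9, 49.0 and 52.3 CPM. Max, the partner of Myc, Mycn and Mxd4, was at 67.4, 64.4 and 37.8 CPM in neutrophil progenitor-like cells. The network's median was -0.19 after 1 challenge in HSPC-like cells, with 2 genes lower, against 1.25% of all genes, and none higher, against 0.868%.

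The genes of polyamine and hypusine metabolism outside the members differed among themselves. Dohh, which completes hypusine on Eif5a, was at 54.0, 81.0 and 36.0 CPM in HSPC-like and 57.4, 96.8 and 42.5 in neutrophil progenitor-like cells, the order seen for Srm and Eif5a. Oaz2, an antizyme that directs ornithine decarboxylase to degradation, was at 57.3, 46.6 and 21.2 CPM in HSPC-like cells. Amd1, which supplies the other substrate of spermidine synthesis, was at 27.9, 30.4 and 13.5 CPM. Of 10 measured genes in HSPC-like cells none passed the line after 1 challenge, where 0.868% of all genes were higher and 1.25% lower. In the rechallenged library 2 were lower than in the unchallenged one, against 8.27% of all genes, and 3 were lower than after 1 challenge, against 10.2%. Of 34 initiation factors, none was higher after 1 challenge in HSPC-like cells and 4 were in neutrophil progenitor-like cells, against 0.868% and 2.59% of all genes. In the rechallenged library 12 and 11 of them were lower than after 1 challenge, against 10.2% and 8.73%, with Eif2s1, a subunit of the factor that brings the initiator tRNA, at 128 against 54.3 CPM in HSPC-like cells.

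Genes of the ribosomal proteins themselves did not share the members' order. Of 83 measured genes none was higher after 1 challenge in HSPC-like or neutrophil progenitor-like cells, where 0.868% and 2.59% of all genes were, with medians of -0.02 and -0.03. In the rechallenged over the unchallenged library the medians were 0.14 and 0.06, with 9 higher and 4 lower in HSPC-like cells, against 1.65% and 8.27% of all genes, and 4 higher and 3 lower in neutrophil progenitor-like cells, against 1.88% and 4.3%. In immature neutrophil-like cells 68 of 83 were higher in the rechallenged than in the unchallenged library, against 2.83% of all genes, with a median of 0.93, where Npm1 was at 168, 183 and 143 CPM and Ncl at 110, 139 and 72.4. The median member and the median ribosomal protein gene therefore stood on opposite sides of the unchallenged level in that class. S-phase genes held 0.230%, 0.288% and 0.223% of UMIs in the HSPC-like class and 0.256%, 0.306% and 0.243% in the neutrophil progenitor-like one, the same order of libraries as the members. None of 26 passed the line after 1 challenge in either class, where 0.868% and 2.59% of all genes were higher and 1.25% and 1.44% lower. Their medians were 0.29 and 0.16, with 24 and 23 of 26 above 0, where 50.4% and 63.5% of all genes were. The members' medians there were 0.33 and 0.46. The 28 genes of the G2 and M phases had medians of 0.34 and 0.22, with 28 and 24 above 0. Of these, 1 was higher by 1.5-fold in each class. The part of S-phase and G2 and M genes in the member differences was not tested.

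Cell by cell, the difference in the HSPC-like class as a whole was a shift of most of the distribution. Thinned to 2000 UMIs, the median cell gave 0.75% (quartiles 0.55 and 1), 1% (0.75 and 1.3) and 0.6% (0.4 and 0.8) of its UMIs to the members. The progenitors' values were 0.7% (0.5 and 0.9), 1.1% (0.8 and 1.45) and 0.55% (0.35 and 0.8). The lower quartile after 1 challenge thus matched the unchallenged median in HSPC-like cells and exceeded it in the progenitors. These classes mix clusters whose shares differed between libraries. Cluster medians were 0.65%, 0.75% and 0.45% (Hlf-led), 0.95%, 1.25% and 0.725% (Cd34-led), 0.65%, 0.8% and 0.4% (Elane-led) and 0.9%, 1.35% and 0.85% (Ctsg-led). The lower quartile after 1 challenge was 0.6% in the Hlf-led and Elane-led clusters, below their unchallenged medians. In the Cd34-led and Ctsg-led clusters it was 1% and 1.1%, above theirs. Immature neutrophil-like medians were 0.15%, 0.15% and 0.10%, which is 2 or 3 UMIs a cell.

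**Figure D5:**
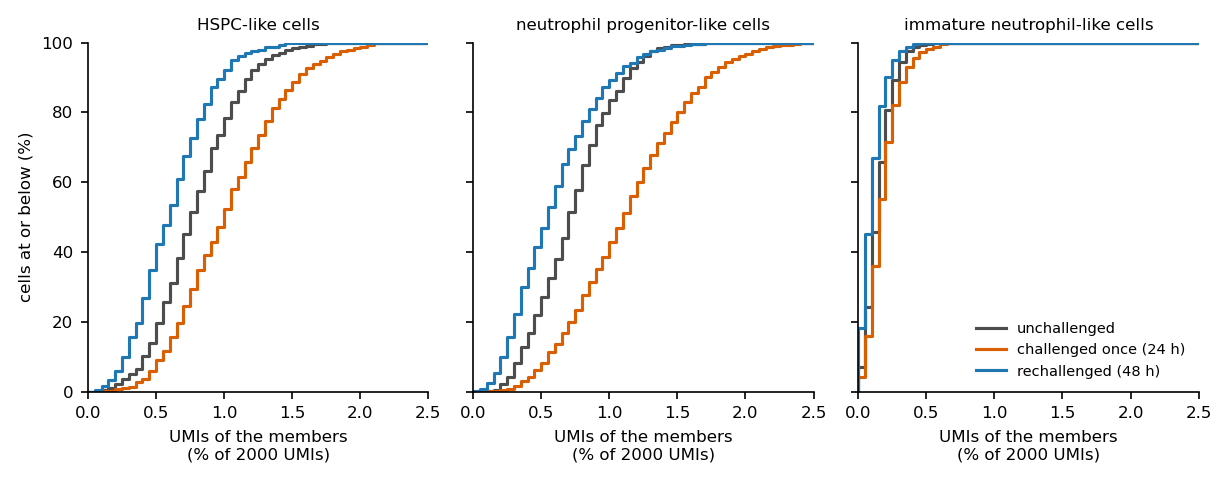
Cumulative percent of cells (vertical axis) by the share of UMIs held by the members in each cell (percent, horizontal axis) after thinning to 2000 UMIs, with 1 line for each library in HSPC-like, neutrophil progenitor-like and immature neutrophil-like cells. The line of the library challenged once lies to the right in the first 2 classes, with medians of 1% and 1.1%, and that of the rechallenged library to the left, with 0.6% and 0.55%.

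Cells in which a Myc UMI was found had the same median share of the other members as the rest, or a higher one, with the widest gaps in the rechallenged library. In HSPC-like cells the median share of the other 34 members was 0.775% with and 0.75% without a Myc UMI in the unchallenged library, 1% in both after 1 challenge, and 0.675% against 0.55% in the rechallenged library. In neutrophil progenitor-like cells the pairs were 0.75% and 0.70%, 1.20% and 1.10%, and 0.75% and 0.55%. Within clusters of the rechallenged library the pairs were closer, at 0.80% and 0.70% in the Cd34-led and 0.90% and 0.80% in the Ctsg-led cluster. Such cells are found only where 1 of 2000 sampled UMIs is Myc, so most cells with some Myc are among the rest. HSPC-like cells with at least 2 S-phase UMIs had medians of 0.80%, 1.05% and 0.65%, against 0.65%, 0.70% and 0.40% in those with fewer. The order of the libraries was thus the same in both sets of cells, with a smaller step from unchallenged to challenged once in cells with few S-phase UMIs.

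Most classes outside the neutrophil lineage shared the low member level of the rechallenged library, B lineage-like cells excepted, but not always the high level after 1 challenge. In monocyte-like cells the median member had log2 ratios of 0.20 for challenged once over unchallenged, -0.69 for rechallenged over unchallenged and -0.89 for rechallenged over challenged once, beside all-gene medians of 0.05, -0.06 and -0.09. There 3 members were higher in the first, against 0.814% of all genes, and 19 and 26 lower in the others, against 5.72% and 7.98%. Mif was at 781, 1697 and 1242 CPM, Srm at 241, 320 and 95.6 CPM and Eif5a at 1276, 1801 and 729 CPM, the order of libraries seen in neutrophil progenitor-like cells. Lymphoid progenitor-like cells had medians of 0.13, -0.78 and -0.92, beside -0.02, -0.20 and -0.17 over all genes, with 22 of 32 and 27 of 34 measured members lower in the rechallenged library than in the unchallenged one and than after 1 challenge, against 17.4% and 15.3% of all genes. Srm was at 105, 91.7 and 26.9 CPM there. Erythroid-like cells, whose progenitors make many ribosomes for globin synthesis, had medians of 0.03, -0.34 and -0.37, beside -0.03, -0.10 and -0.06, with 4 and 6 members lower, against 5.86% and 4.7% of all genes. Odc1 was at 354, 335 and 361 CPM and Nop10 at 701, 750 and 748 CPM in these cells, so that the libraries differed little for both, while Eif5a was at 1561, 1549 and 817 CPM. Megakaryocyte-like cells had medians of -0.12, -0.61 and -0.42, beside -0.03, -0.14 and -0.09, with no member past 1.5-fold after 1 challenge, against 0.897% of all genes in either direction, and 19 and 13 lower in the rechallenged library, against 12.2% and 9.85%. B lineage-like cells had medians of -0.17, -0.22 and -0.09, beside 0.01, -0.18 and -0.20, with none past the line after 1 challenge, against 2.42% of all genes, and 5 and 2 lower, against 17.7% and 19.9%, counts under that background. With every B lineage-like cell thinned to 2000 UMIs, the median cell gave 0.45% of its UMIs to the members in each library and the mean was 0.541%, 0.497% and 0.569%, after 170, 360 and 331 shallower cells were left out.

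Over 38 combinations of library and class with at least 50 cells, the genes outside all lists whose log2 level had the highest Pearson correlation with the member mean were Nsun2 (0.99), an RNA methyltransferase, Mrpl12 (0.98) and Ndufaf4 (0.98), both mitochondrial, and Gpatch4 (0.97). Hsp90aa1, Lsm7, Mri1, Timm9, Atic and Bzw2 followed, each at 0.97. Of the members against the mean of the others, Nop56 was at 0.98, Myc at 0.90, Mif at 0.84, Eif5a at 0.83 and Polr1b at 0.79. These points share 3 libraries and the contrast between maturing neutrophils and other cells, so the values describe likeness across cell types and not across libraries.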

How the data were processed

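Single cells of 3 mouse bone marrow libraries, 1 for each group, were measured with the 10x 3′ kit V2, per the labels. The authors deposited whole-number counts of UMIs per gene and cell barcode, and per the submitters' processing notes Cell Ranger 3.0.0 and build mm10 were used. How cells were called and whether animals were pooled are not given in the sources used here. One source label calls the material neutrophils, while the enrichment label names Kit, and the series' design text describes another set of samples than the labels, so groups follow the sample labels. No column of another sample was present (0 left out).

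The members and gene lists were chosen with earlier results of these data known. Every member may be named. Values are given for Myc, for members at least 1.5-fold different in a described class, and for up to 3 genes of each other list with the largest ratio. A cell was kept if it had no fewer than 500 UMIs and 300 genes and no more than 10% of mitochondrial UMIs, and doublets were called with Scrublet in scanpy 1.11.5 (expected share 6%; 427, 294 and 256 calls removed). Of 2000 variable genes, 1890 were used after leaving out the members, the lists other than the specific granule one, and ribosomal, mitochondrial and inflammatory genes. Clustering used 30 components, 15 neighbours and Leiden resolution 1 (leidenalg 0.10.2). Of 21 clusters, 20 were named from at least 3 markers at 2-fold, and 1, of 822 cells with granule genes, was left unnamed.

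Deposited counts were summed per library and class and divided by the total (CPM). A ratio is the log2 of CPM plus 10, where both groups together hold 100 UMIs or more. Levels carry exact Poisson and folds exact conditional binomial 95% intervals, and shares of cells Clopper-Pearson intervals. They cover counting error only, and cells are not replicates. Alternatives were stricter or no filters, doublets kept, resolution 2, 1 CPM added, thinning to 2000 or 1000 UMIs, per-cell means, median-of-ratios scaling and totals without ribosomal protein, mitochondrial and granule genes. The ratio script was tested on simulated data. Promoter windows came from RefSeq (GRCm38.p6), and gene positions and 31-base words of the last 300 transcript bases from GENCODE (GRCm38). Python 3.11.15, numpy 2.4.6, scipy 1.17.1, pandas 2.3.3 and matplotlib 3.10.9 were used.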

Additional observations from a re-analysis of the deposited data

Results flagged for a closer look

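Members went the other way in 2 classes after 1 challenge. In megakaryocyte-like cells the median member had a log2 ratio of -0.12 for challenged once over unchallenged, with 5 of 35 members above 0, and in B lineage-like cells -0.17, with 3 of 34 above 0, while the median was 0.33 in HSPC-like and 0.46 in neutrophil progenitor-like cells. The all-gene medians in the first 2 classes were -0.03 and 0.01, with 39.9% and 52.9% of all genes above 0. No member passed 1.5-fold in either class, where 0.897% and 2.42% of all genes did in either direction. In megakaryocyte-like cells Ncl was at 1063, 944 and 670 CPM and Odc1 at 158, 123 and 108. In B lineage-like cells Ncl was at 718, 622 and 546 CPM and Pa2g4, of the members, was among the lowest ratios with -0.42. Median depth was 12619, 11375 and 7389 UMIs in megakaryocyte-like and 3613, 2750 and 1402 in B lineage-like cells. The difference between classes was not tested, since each group is 1 library.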

How the results depend on the processing

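No paired analysis was possible because each group has 1 library, and no replicate could be left out. The member medians between libraries and between stages kept their sign under all 14 alternatives, except challenged once over unchallenged in immature neutrophil-like cells (11 of 14, -0.02 to 0.15) and the step from HSPC-like to neutrophil progenitor-like cells after 1 challenge (13 of 14, -0.23 to 0.09). In the lists below, "NP over HSPC" is neutrophil progenitor-like over HSPC-like and "immature over NP" the next step. With 1 CPM added, the medians were -2.59, -3.06 and -2.82 for immature over NP in the 3 libraries, and -1.03 and -0.91 for rechallenged over challenged once in neutrophil progenitor-like and immature neutrophil-like cells. With median-of-ratios scaling, immature over NP was -1.52, -1.85 and -1.44 and NP over HSPC -0.017, 0.094 and -0.059. HSPC-like cells then gave -0.31 for rechallenged over unchallenged and -0.59 over challenged once, and neutrophil progenitor-like cells 0.36 for challenged once over unchallenged and -0.67 for rechallenged over challenged once. With totals without ribosomal protein, mitochondrial and granule genes, HSPC-like cells gave -0.31 and -0.52 for these comparisons of the rechallenged library, neutrophil progenitor-like cells -0.72 for rechallenged over challenged once, and NP over HSPC -0.21 (challenged once) and -0.42 (rechallenged). With doublets kept, immature over NP was -1.67 and NP over HSPC -0.47 in the unchallenged library, NP over HSPC was -0.20 after 1 challenge, and neutrophil progenitor-like cells gave 0.56 for challenged once over unchallenged. With no filter NP over HSPC was -0.23 (challenged once) and -0.53 (rechallenged), with resolution 2 it was -0.40 (unchallenged), with per-cell means -0.029 and with thinning -0.0036 (both challenged once). Thinning gave 0.20 for challenged once over unchallenged in HSPC-like cells, and thinning to 1000 UMIs a per-cell median of 0.5% in rechallenged neutrophil progenitor-like cells. The cause of these moves was not tested.

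Counts of members moved more. In HSPC-like cells the 3 members higher after 1 challenge became 5 under the stricter filter, no filter or 1 CPM, and 1 without the 5 members of shared 3′ ends, an alternative added after the data were seen. The 11 lower in the rechallenged than in the unchallenged library became 7 without a filter, 4 by median of ratios and 5 on the reduced totals, with 1 higher without a filter, and the 26 lower than after 1 challenge became 15 on the reduced totals. In neutrophil progenitor-like cells 12 higher became 7, and 12 lower became 5, by median of ratios, where 1.37% of all genes were higher and 2.64% lower. The 1 higher became 0 without members of shared ends. The 5 and 8 lower in immature neutrophil-like cells ranged from 2 to 24 and from 5 to 20. All-gene shares lower there were 1.99% and 2.70% by median of ratios and 6.49% and 7.44% on the reduced totals. Members lower in NP over HSPC, 5, 2 and 5, ranged from 1 to 15, from 1 to 4 and from 3 to 16. All-gene shares lower were 9.70%, 7.30% and 8.62% by median of ratios and 24.3%, 19.2% and 26.2% on the reduced totals. For the filter, doublet, clustering, thinning, per-cell and added-CPM settings no all-gene share was computed, so counts there have no background beside them. Depth limits Myc in maturing neutrophils, with 21 UMIs in the rechallenged library.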

Other observations

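The unnamed cluster of 421, 160 and 241 cells, in which granule genes held 51.9%, 49.6% and 52.2% of UMIs, held members at 0.109%, 0.107% and 0.0451% of UMIs, close to or below the shares in immature neutrophil-like cells. T, natural killer and innate lymphoid cell-like cells, 65, 103 and 367 of them, held members at 0.599%, 0.750% and 0.274% of UMIs. For rechallenged over challenged once the median of 20 measured members was -1.38 on the log2 scale, beside -0.24 over 2541 genes.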
